A study of Mus musculus with 4 samples.

Results

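Foxo1, Foxo3, Foxp1, Tcf7, Lef1, Bach2 and Satb1 are transcription factor genes that are active in resting naive CD4+ T cells. Their values were taken from every probe that the array annotation names for 1 of them. These were 24 of 56605 probes and 7 of 32562 genes, read on each of the 4 arrays analysed. The levels of 3 of the genes, Foxo1, Tcf7 and Lef1, were more than 2-fold lower after 3 h of induced Treg (iTreg) culture than in naive T cells, on the wild-type (WT) arrays and on those labelled Nr4a-TKO alike. Bach2 and the probes in the 3′ stretch of Foxp1 went the other way, by less on the arrays labelled Nr4a-TKO. Satb1 stayed near its naive level, and no probe of the 7 genes was 2-fold apart between the genotypes at either stage.

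The study asked what the Nr4a nuclear receptors, which are induced by T cell receptor stimulation, do in early Treg differentiation. Transcripts were read on single-colour Agilent mouse arrays, and each of 4 groups had 1 array: naive T cells of WT and of Nr4a-TKO genotype, and the iTreg cultures of both after 3 h. All cells were on the C57BL/6J background. Nr4a-TKO cells lacked the 3 family members through Nr4a1-floxed, Nr4a2-floxed and Nr4a3-/- alleles, and the driver of Cre is not given in the sources used here. They were sorted as Ly5.2+ CD4+ CD44low Foxp3- cells, with a human CD2 and CD52 reporter in the Foxp3 locus, from irradiated Rag2-/- recipients that carried WT and Nr4a-TKO marrow together. WT naive T cells came from recipients of WT marrow alone, so genotype and the kind of chimera cannot be told apart. For the 3 h arrays, the cells were kept on plate-bound anti-CD3 (2 µg/ml) with anti-CD28 (0.5 µg/ml), IL-2 (10 ng/ml), TGF-β1 (at 0.2 ng/ml or at 0.5 ng/ml) and antibodies that block IFN-γ and IL-4 (1 µg/ml each). How many mice stood behind each array was not given in the sources used here.

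In a resting T cell, Foxo1 sits in the nucleus and keeps genes for homing and for survival on IL-7 active, and Foxo3 and Foxp1 are its forkhead relatives. T cell receptor and CD28 signalling activates Akt, which phosphorylates Foxo proteins and sends them out of the nucleus. Tcf7 (TCF-1) and Lef1 are HMG-box factors that work with β-catenin or with Tle corepressors and mark naive and memory-like T cells. Bach2 represses effector genes together with small Maf proteins, and Satb1 organizes chromatin in T cells.

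With 1 array per group there was no spread between mice, and no difference was tested. All values are log2 of the background-corrected, quantile-normalized intensity. Probes printed on at least 5 spots gave the spread between spots within an array. Scaled to a log2 difference, it was an SD of 0.18, or 0.24 for probes under a level of 6 and 0.17 above it. This leaves out labelling and any variation between arrays, as well as between mice. The 24 probes were each printed on 1 spot and were well above background on all 4 arrays. The 8 CD4 T cell markers were well above background on all 4 arrays, but 7 of them read lower at 3 h in each genotype, with a list median of -0.57 on the WT arrays and -0.86 on those labelled Nr4a-TKO. Cd4 itself was at -1.03 and -1.53, Cd3g at -1.09 and -1.17, and Cd5 on the other side at 1.03 and 1.28. The part of this in the lower levels of the factors was not tested. By the brightest probe of each, the 8 activation markers were more than 2-fold higher at 3 h in both genotypes. The lowest Egr3 probe was at 0.76 on the arrays labelled Nr4a-TKO. In naive T, 6 of the 8 read higher on the Nr4a-TKO than on the WT array and 2 lower. Their median was 0.40, with Irf4 at 1.25. At 3 h, 5 were higher and 3 lower, with a median of 0.14. Of the CD4 T cell markers, 6 were lower and 2 higher on the Nr4a-TKO array at 3 h, with a median of -0.33. The part of these in the differences of the factors was not tested. In the label check, 2 of the 3 Nr4a3 probes had less signal at 3 h in the culture labelled Nr4a-TKO than in WT, with log2 differences of -1.85 and -1.46, while the third differed by 0.19. Nr4a1 and both Nr4a2 probes were higher there, by 0.48, 1.37 and 1.38. In naive T too, the Nr4a-TKO array read above WT for Nr4a1, by 1.33, and for the Nr4a2 probes, by 0.76 and 0.19. The 3 Nr4a3 probes lay between -0.39 and 0.08 there. The Nr4a1 and Nr4a2 probes thus did not bear the label out at either stage. Whether these probes lie in the deleted parts is not given in the sources used here, so genotype is given below as the arrays are labelled. In such bulk RNA, fewer cells of a type and less RNA per cell cannot be told apart.

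The probes were numbered from 5′ to 3′ along each gene. Of the 24 probes, 15 were annotated to a RefSeq transcript and 9 to other transcripts. The start of each probe the results turn on follows, with the position of the whole probe on mm9, the build of the array annotation. For each, the first 30 of its 60 bases are printed in lower case, with nothing marked, since no motif was sought in them. Exon, intron and UTR positions were not analysed here. Of the 6 Foxp1 probes, which disagree and are spread over 509 kb of the gene, 5 are shown. For Foxo1 and Bach2 both probes are shown, which read the same RNA on the same arrays and are not separate measurements. Tcf7 and Lef1 are shown by the probe with the highest mean, which here represents a gene.
Foxo1 probe 1, chr3:52150946-52151005, plus strand: tgacagcaggaactgaggagcattccaaag
Foxo1 probe 2, chr3:52153289-52153348, plus strand: ttctgggagaatgttcgctttctggtctat
Foxp1 probe 1, chr6:99384753-99384812, minus strand: aatcctcaaccctcacataatgggctcctg
Foxp1 probe 3, chr6:99102053-99102112, minus strand: tctgctgttcgggtcatgagacttatattt
Foxp1 probe 4, chr6:98956679-98956738, minus strand: tgtgcctgcattttcttttataatgaaggg
Foxp1 probe 5, chr6:98902315-98902374, minus strand: cactctgttgtcggagtgaacctgcctcct
Foxp1 probe 6, chr6:98875434-98875493, minus strand: aagaatctcattccttgatatcaactgtaa
Tcf7 probe 2, chr11:52066114-52066173, minus strand: ttttttcattctcgctgtagatagcctgaa
Lef1 probe 1, chr3:130820246-130820305, plus strand: cataatcttcctggtatttatacacagcac
Bach2 probe 1, chr4:32588782-32588841, plus strand: cttctggcaagcactggttggacagacgaa
Bach2 probe 2, chr4:32673009-32673068, plus strand: tgaattgctagtgtttactgaattttgtct

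The levels of all 24 probes on the 4 arrays were plotted first. A level can be set against the same probe on another array, but not against another probe.

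**Figure D1:**
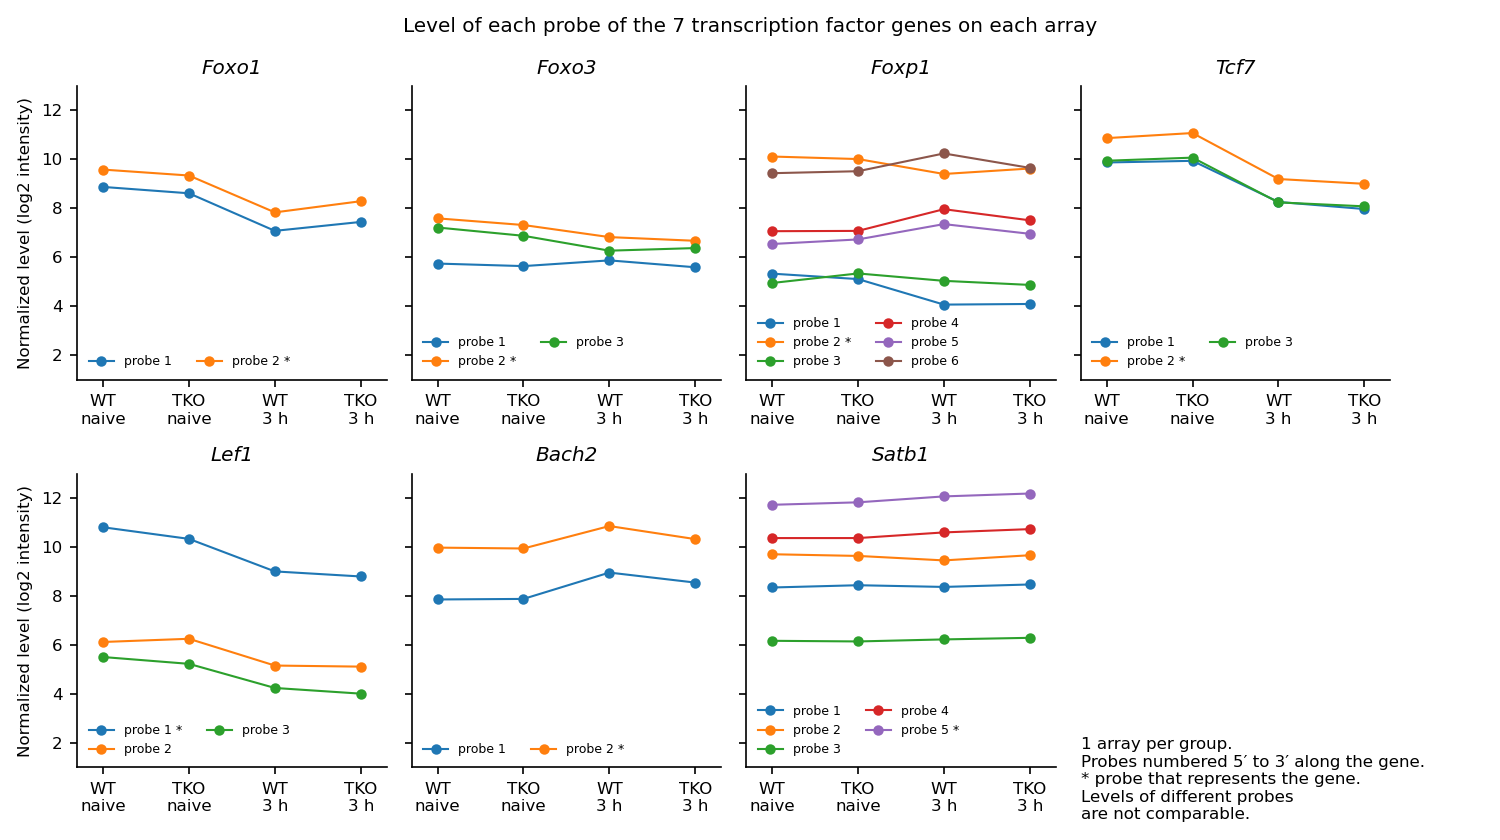
Normalized log2 intensity (vertical axis) of every probe on the 4 arrays (horizontal axis), 1 panel per gene, 1 coloured line per probe numbered 5′ to 3′, with an asterisk at the probe that represents the gene. The lines of Foxo1, Tcf7 and Lef1 drop from the naive T to the 3 h arrays, those of Bach2 climb, those of Satb1 are nearly flat, and those of Foxp1 go both ways.

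The change over 3 h of culture was examined gene by gene. On the WT arrays, 3 of the 7 genes were more than 2-fold lower at 3 h, where 8.55% of all 23243 genes compared were lower by as much, and 0 were more than 2-fold higher, where 8.40% of all genes were. On the arrays labelled Nr4a-TKO, again 3 of 7 were more than 2-fold lower, against 7.99% of 23729 genes, and 0 were higher, against 7.78%. The same genes, Foxo1, Tcf7 and Lef1, made up both counts. The median log2 difference of the 7 genes was -0.77 on the WT arrays and -0.64 on those labelled Nr4a-TKO, beside medians over all genes of -0.05 and -0.02.

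Foxo1, the main Foxo factor of T cells, had the largest difference between the genotypes' changes among the 7 representative probes. Its 3′ probe, which represents the gene, read 9.59 in WT naive T, 9.34 in Nr4a-TKO naive T, 7.84 in WT iTreg at 3 h and 8.29 in Nr4a-TKO iTreg at 3 h. Both 3 h arrays were below both naive arrays, and the lowest of the 4 was WT iTreg. The log2 difference was -1.75 on the WT arrays (3.36-fold lower) and -1.05 on the arrays labelled Nr4a-TKO (2.07-fold lower). The latter was under 2-fold in the deposited values (-0.89), with scaling to the 75th percentile (-0.90) and with a normexp offset of 50 (-0.94), each of which leaves 2 of the 7 genes past 2-fold in that genotype. The 5′ probe, 2.34 kb away, gave the same order of the 4 arrays, with levels of 8.88, 8.62, 7.08 and 7.45 and changes of -1.79 and -1.17. The change labelled Nr4a-TKO minus the change labelled WT was 0.70 for the 3′ probe and 0.62 for the 5′ probe. Set against repeated spots, where the difference of 2 changes has an SD of 0.24, both exceed 2 SDs, as do 5 of the 24 probes and 13.1% of the 32959 probes well above background on all 4 arrays, but neither could be set against a spread between mice.

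Foxo3, a second Foxo factor that shares DNA motifs with Foxo1, moved less. Its representative probe read 7.59 and 7.32 in WT and Nr4a-TKO naive T, and 6.83 and 6.68 at 3 h. Both 3 h levels were lower, by 1.70-fold on the WT arrays and 1.56-fold on those labelled Nr4a-TKO. The 3′-most probe, with log2 differences of -0.95 and -0.50, was also lower, while the dim 5′ probe, with 0.13 and -0.05, stayed within the spread of repeated spots.

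Foxp1, a forkhead repressor that holds naive T cells in quiescence, had no single direction. Its representative probe, the second from the 5′ end, read 10.12 in WT naive T, 10.02 in Nr4a-TKO naive T, 9.41 in WT iTreg and 9.63 in Nr4a-TKO iTreg. This made log2 differences of -0.71 on the WT arrays and -0.39 on those labelled Nr4a-TKO. The first probe was lower too, by -1.26 and -1.02, which is past 2-fold in both genotypes, at levels between 4.07 and 5.33. The third probe, also dim, differed by 0.09 and -0.47.

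The 3 probes nearest the 3′ end of Foxp1 were higher at 3 h. The 3′-most, annotated to a RefSeq transcript as the representative probe is, read 9.44 and 9.52 in WT and Nr4a-TKO naive T. It read 10.24 in WT iTreg and 9.66 in Nr4a-TKO iTreg. Probes 4 and 5 were annotated to other transcripts. Only the WT iTreg array stood out from the other 3 for the 3′-most probe. Its log2 difference was 0.81 on the WT arrays and 0.14 on those labelled Nr4a-TKO, the latter within 1 SD of repeated spots. Probe 4 read 7.07 and 7.08 in WT and Nr4a-TKO naive T, 7.97 in WT iTreg and 7.51 in Nr4a-TKO iTreg, and probe 5 read 6.55, 6.73, 7.36 and 6.96 in that order. Both had the order of the 4 arrays seen in the 3′-most probe, and their changes were 0.90 and 0.81 on the WT arrays and 0.43 and 0.23 on the others. The sign for Foxp1 as a gene therefore depends on the probe: on the WT arrays it was -0.71 with the brightest probe, 0.10 with the mean of its 6 probes and 0.81 with its second-brightest probe.

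**Figure D2:**
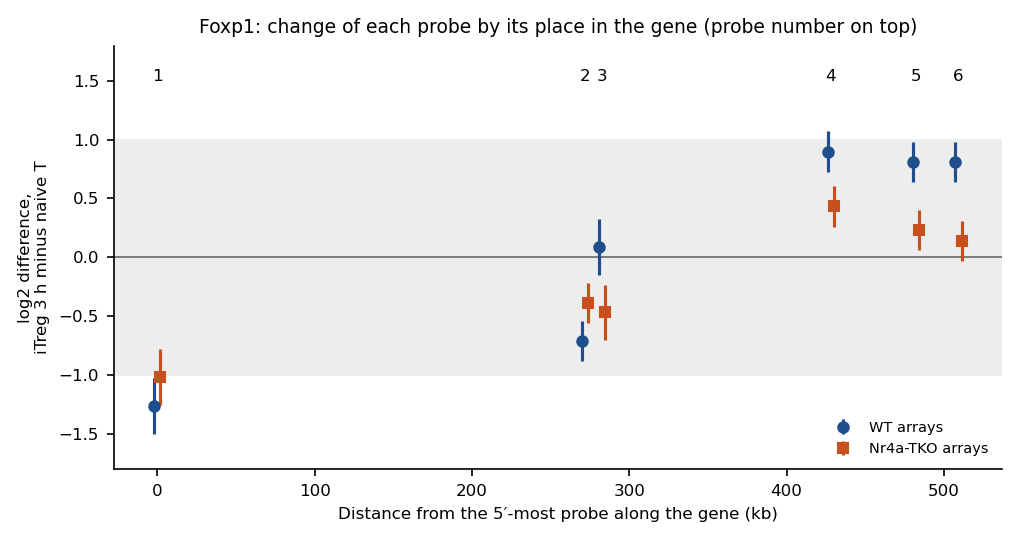
log2 difference between iTreg at 3 h and naive T (vertical axis) for the 6 Foxp1 probes, by distance in kb from the 5′-most probe (horizontal axis), for WT arrays (circles) and arrays labelled Nr4a-TKO (squares), drawn 2 kb to either side of the probe's place. Bars are 1 SD of a difference from repeated spots, shading marks less than 2-fold, and the 3 probes at 428 kb and beyond lie above 0 while the 2 at 0 and 272 kb lie below it.

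Plotted by place, the Foxp1 probes at 0 and 272 kb were lower at 3 h and those at 428, 482 and 509 kb were higher. Past 2 SDs of repeated spots, 3 of the 6 probes were higher on the WT arrays and 1 on those labelled Nr4a-TKO. The array gives no transcript structure, so which Foxp1 transcripts each probe reads was not tested.

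Tcf7, which encodes TCF-1, was the member with the lowest 3 h value relative to naive T on the arrays labelled Nr4a-TKO. Its representative probe read 10.87 in WT naive T, 11.08 in Nr4a-TKO naive T, 9.20 in WT iTreg and 9.0 in Nr4a-TKO iTreg. Both 3 h arrays were far below both naive arrays. The log2 difference was -1.67 on the WT arrays (3.18-fold lower) and -2.07 on those labelled Nr4a-TKO (4.21-fold lower). The other 2 probes, which lie within 0.73 kb, differed by -1.61 and -1.70 on the WT arrays and by -1.97 and -1.99 on the others. All 3 probes thus had the larger change on the arrays labelled Nr4a-TKO, by 0.29 to 0.40 on the log2 scale, each of which is within 2 SDs of repeated spots for a difference of changes.

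Lef1, the close relative of Tcf7, was lower at 3 h by a similar amount. Its representative probe read 10.81 in WT naive T, 10.34 in Nr4a-TKO naive T, 9.01 in WT iTreg and 8.80 in Nr4a-TKO iTreg. The 2 naive arrays were again above the 2 arrays at 3 h. The log2 difference was -1.8 on the WT arrays (3.49-fold lower), the lowest of the 7 genes there, and -1.54 on those labelled Nr4a-TKO (2.90-fold lower). The 2 dimmer probes downstream, whose levels lay between 4.01 and 6.26, were also lower, by -0.96 and -1.26 on the WT arrays and by -1.14 and -1.22 on the others, so 1 of the 3 probes missed 2-fold on the WT arrays. The 3′-most, at -1.26 and -1.22, was the only 1 of the 3 annotated to a RefSeq transcript.

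Bach2, the repressor of effector genes, was higher at 3 h. Its representative probe read 9.98 in WT naive T, 9.95 in Nr4a-TKO naive T, 10.86 in WT iTreg and 10.33 in Nr4a-TKO iTreg. The naive arrays were level with each other, and the WT iTreg array was the highest. The log2 difference was 0.88 on the WT arrays (1.84-fold higher) and 0.38 on those labelled Nr4a-TKO (1.30-fold higher). The 5′ probe, 84.2 kb away, had levels of 7.86, 7.89, 8.96 and 8.55 on the 4 arrays, and its change was 1.1 on the WT arrays and 0.67 on the others. Bach2 on the WT arrays passed 2-fold in the deposited values, at 1.13, and with scaling to the 75th percentile, at 1.11.

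Satb1, the chromatin organizer, had the smallest range of the 7 genes. Its representative probe read 11.73 in WT naive T, 11.83 in Nr4a-TKO naive T, 12.07 in WT iTreg and 12.19 in Nr4a-TKO iTreg. The 3 h arrays were slightly above the naive arrays, by 0.34 in WT and 0.36 in Nr4a-TKO. Over its 5 probes the log2 differences lay between -0.25 and 0.34 on the WT arrays and between 0.03 and 0.37 on the others, and none reached 2-fold.

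**Figure D3:**
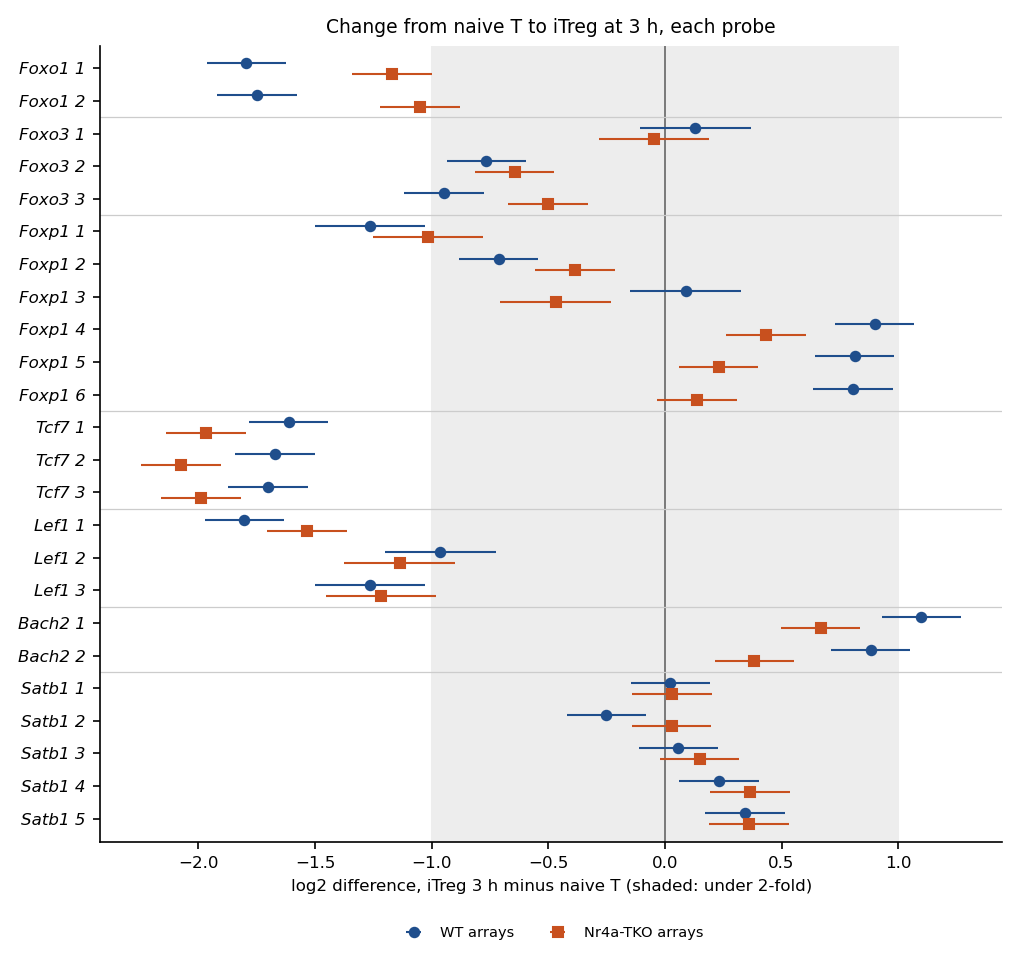
log2 difference between iTreg at 3 h and naive T (horizontal axis) for each of the 24 probes (vertical axis), for WT arrays (circles) and arrays labelled Nr4a-TKO (squares). Bars are 1 SD of a difference from repeated spots, shading marks less than 2-fold, and the probes of Foxo1 and Tcf7 all lie left of the shading in both genotypes, while the genotypes stand farther apart for Foxo1 than for Lef1.

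Counted over probes, 8 of 24 were more than 2-fold lower at 3 h on the WT arrays, where 8.47% of 39395 probes were, and 1, the 5′ probe of Bach2, was higher, where 9.23% were. On the arrays labelled Nr4a-TKO 9 of 24 were lower, against 7.92% of 40285 probes, and 0 were higher, against 8.19%. The change had the same sign in both genotypes for 21 of the 24 probes. Of all 24, 15 had a change smaller in size on the arrays labelled Nr4a-TKO. These took in both probes of Foxo1, both of Bach2, all 3 of Foxo3 and 5 of 6 of Foxp1, and none of the 3 of Tcf7. The share of all probes was not computed for either count. The median signed difference of the changes was 0.012 for the 24 probes and 0.0097 for all probes.

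Next, the genotypes were compared at each stage. These differences use the same 4 arrays as the changes above and add no further measurement. In naive T, 0 of the 7 genes and 0 of the 24 probes were 2-fold apart, where 3.61% of all 23125 genes and 3.51% of all probes were. The 7 genes lay between -0.47 for Lef1 and 0.21 for Tcf7, with a median of -0.10 beside -0.02 over all genes. The representative Lef1 probe was the 1 of 24 probes past 2 SDs of repeated spots in naive T, where 15.1% of the 32959 probes well above background on all 4 arrays were, and another Lef1 probe had the opposite sign, at 0.13.

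At 3 h, again 0 of the 7 genes and 0 of the 24 probes were 2-fold apart, where 3.68% of all 23516 genes and 3.53% of all probes were. Past 2 SDs of repeated spots were 7 of the 24 probes, of 3 genes, where 14.5% of the 32959 probes were, and probes of 1 gene are not separate cases. On the array labelled Nr4a-TKO, both Foxo1 probes were higher, by 0.36 and 0.46. Both Bach2 probes were lower there, by -0.41 and -0.53, and so were the 3 probes at the 3′ end of Foxp1, by -0.46, -0.40 and -0.59. In fold terms, the representative Foxo1 probe was 1.37-fold higher and the representative Bach2 probe 1.45-fold lower. The probes of Tcf7, Lef1, Satb1 and Foxo3 all stayed within 2 SDs at 3 h, between -0.29 and 0.21. The genotype difference had opposite signs in naive T and at 3 h, each past 1 SD, for 4 of the 24 probes, where 9.79% of the 32959 probes did so, and 2 of the 4 were the Foxo1 probes.

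**Figure D4:**
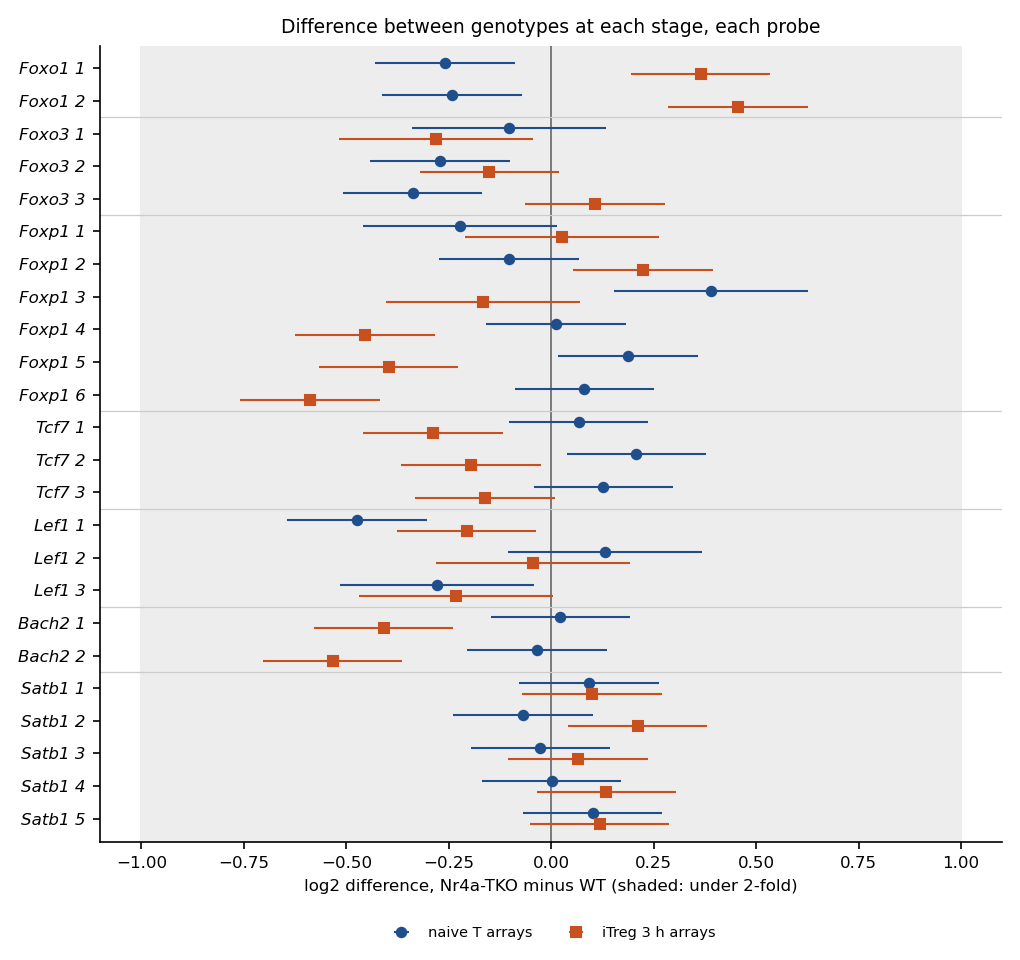
log2 difference between the arrays labelled Nr4a-TKO and WT (horizontal axis) for each of the 24 probes (vertical axis), in naive T (circles) and in iTreg at 3 h (squares), with bars of 1 SD of a difference from repeated spots. All points lie inside the shading for less than 2-fold, and at 3 h the probes of Foxo1 lie right of 0 while those of Bach2 and probes 4 to 6 of Foxp1 lie left of it.

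Of the 8 markers of B cells, which also express Foxo1, Foxp1 and Bach2, 7 were higher on the Nr4a-TKO than on the WT naive T array, and 8 at 3 h, but by unequal amounts. Over all genes compared, 52.8% were below 0 in naive T and 49.6% at 3 h. The antigen presentation genes H2-Aa, H2-Ab1 and Cd74 were higher by 1.61, 0.93 and 0.75 in naive T. Of the B cell receptor genes, Cd79a was higher by 0.70 and Cd79b differed by -0.56, and Ms4a1 (CD20) differed by 0.10. At 3 h, H2-Aa, H2-Ab1 and Cd74 were higher by 1.34, 1.38 and 0.86, Cd79a by 1.14, Cd79b by 0.77 and Ms4a1 by 0.07. Past 2-fold at that stage were 3 of the 8, where 3.68% of all genes were apart by as much. All 8 genes were well above background on all 4 arrays, and their summed level was 10.28 on the WT naive T array, 10.92 on the Nr4a-TKO naive T array, 9.93 on the WT iTreg array and 10.92 on the Nr4a-TKO iTreg array. The summed memory T cell list was at 11.30, 11.49, 10.69 and 11.52 on the same arrays. Its genes did not move together: in naive T, S100a4 differed by -2.16 and Id2 by 1.03 between the genotypes, and at 3 h Cd44 was higher by 1.55 and Cxcr3 by 1.30.

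The summed Treg list was at 10.33, 10.11, 11.28 and 11.40. Of its genes, Foxp3 was lower on the arrays labelled Nr4a-TKO, by -1.31 in naive T and -1.35 at 3 h, and Ikzf2 (Helios) by -1.37 in naive T. Ctla4 was higher there in naive T, by 0.83. At 3 h, 4 of the 5 genes compared were above 0. Ikzf2 was then at 0.16 with its representative probe and at -1.67 with its lowest probe. The summed myeloid list lay between 15.08 and 15.28, most of it from 1 probe of Itgam at 14.98 to 15.14, with Csf1r at 11.15 to 11.75. The other Itgam probe differed by 1.31 between the genotypes in naive T and by -1.14 over 3 h on the arrays labelled Nr4a-TKO. What the bright Itgam probe reads in sorted CD4+ T cells was not tested. Among the dimmer genes of the list, Cd14 was at -2.69 and Tyrobp at -0.85 between the genotypes in naive T. Over 3 h on the WT arrays, Tyrobp was at -1.54 and S100a9 at -1.36. The part of these lists in the differences of the factors was not tested. Ncr1 of NK cells and Hbb-b1 of erythroid cells were not well above background on any array.

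The genes whose 4 levels ran most like a member's were sought among 15635 genes well above background on all 4 arrays, by the Euclidean distance between log2 levels after each gene's mean was removed. For Foxo1 these were Def6, at a distance of 0.05, Mgat4a, at 0.07, and 9030619P08Rik, at 0.10. For Tcf7 they were Fbxl20, Cytip and Khk, at 0.04, 0.07 and 0.08. For Lef1 they were Ssbp3, Tbxa2r and 2810013P06Rik, at 0.06, 0.08 and 0.08. The 4 other members ranged over less than 1 on the log2 scale and were not searched. Among the 7 genes themselves, Foxo3 and Foxp1 were the closest pair at 0.33, Tcf7 and Lef1 the next at 0.52, and Tcf7 and Bach2 the farthest apart at 2.52. These distances over 4 arrays are a description, and the Foxp1 value stands for its second probe.

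Genes around the 7 factors were then described from lists of known partners and targets, beginning with genes that Foxo factors are known to activate. At 3 h, 11 of these 17 genes were more than 2-fold lower on the WT arrays and 12 on those labelled Nr4a-TKO. Over all genes compared, the shares were 8.55% and 7.99%. Another 2, Bcl6 and Bcl2l11, were more than 2-fold higher in both, where 8.40% and 7.78% of all genes were. The median was -1.89 and -1.84, beside -0.05 and -0.02 over all genes. S1pr1, the receptor that lets T cells leave lymph nodes, read 10.11 and 10.02 in WT and Nr4a-TKO naive T and 6.03 and 6.29 at 3 h, which is 16.8-fold and 13.3-fold lower. Klf2, the transcription factor that drives S1pr1, read 12.41 and 12.30 in naive T and 9.01 on both arrays at 3 h. Its log2 difference was -3.41 on the WT arrays and -3.29 on the others.

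Il7r, the IL-7 receptor chain, was lower by -3.01 and -2.76. The growth and redox brakes followed, with Txnip at -4.06 and -3.32, Cdkn1b (p27) at -3.12 and -2.40, and Pik3ip1, an inhibitor of PI3K, at -2.91 and -2.90. Gadd45a, Ccng2, Cited2, Sesn1 and Sesn3 lay between -2.31 and -1.33 on the WT arrays and between -2.03 and -1.27 on the others. Ccr7, the chemokine receptor for lymph node entry, differed by -0.42 on the WT arrays and by -1.20 on the others. The genes on the other side were Bcl6, the follicular helper regulator, at 1.95 and 1.76, and Bcl2l11, which encodes the death factor Bim, at 1.54 and 1.92. Some of these values rest on 1 of several probes. On the WT arrays, another probe was within 2-fold for Pik3ip1 (-0.39), Gadd45a (-0.42), Cited2 (-0.72), Sesn3 (-0.98) and Bcl2l11 (0.51). On the arrays labelled Nr4a-TKO, this held for Pik3ip1 (-0.50), Cited2 (-0.50) and Bcl2l11 (0.39). None of the 17 genes was 2-fold apart between the genotypes at either stage, where 3.61% of all genes were in naive T and 3.68% at 3 h.

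**Figure D5:**
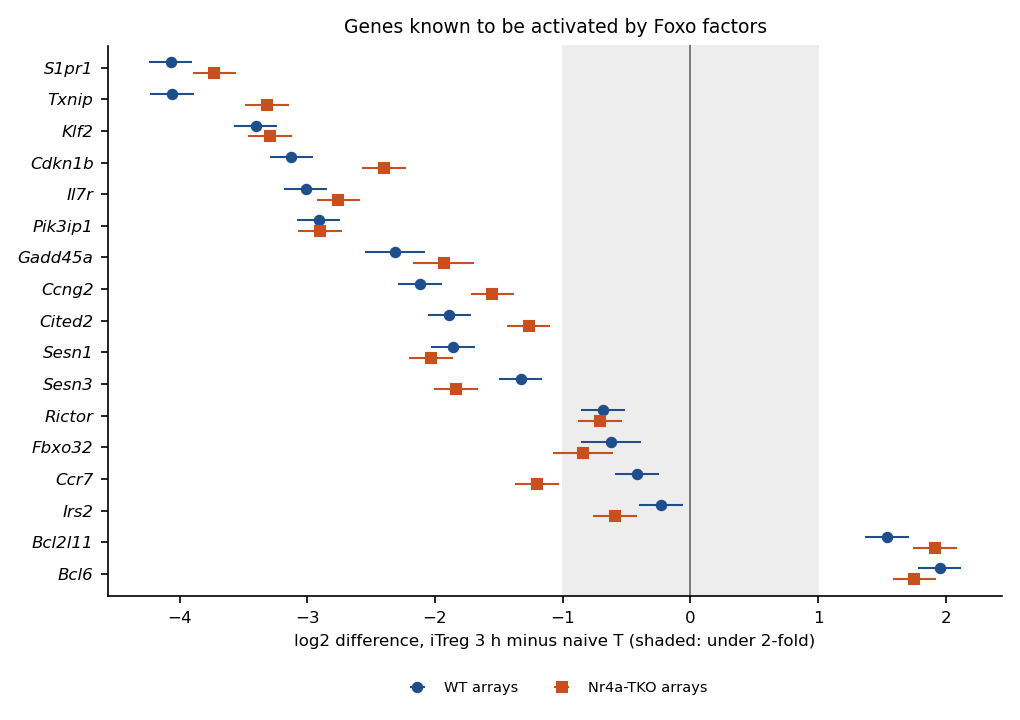
log2 difference between iTreg at 3 h and naive T (horizontal axis) for 17 genes known to be activated by Foxo factors (vertical axis), for WT arrays (circles) and arrays labelled Nr4a-TKO (squares), with bars of 1 SD of a difference from repeated spots. Most points lie left of the shading for less than 2-fold, down to -4.07 for S1pr1, and Bcl2l11 and Bcl6 lie right of it.

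Among 11 regulators of Foxo proteins, 1 was more than 2-fold lower at 3 h on the WT arrays and 2 on those labelled Nr4a-TKO, and 0 were higher. Over all genes, 8.55% and 7.99% were lower by as much, and 8.40% and 7.78% were higher. Sgk1, a kinase that phosphorylates Foxo proteins, was lower in both, by -2.61 and -1.63. The deacetylase gene Sirt2 differed by -0.31 and -1.11, and by -0.05 and -0.82 with its other probe. Akt1 and Akt2 lay between -0.28 and 0.02 with their representative probes. The highest Akt1 probe was at 0.33 on the WT arrays and 0.53 on those labelled Nr4a-TKO. All Akt2 probes lay between -0.30 and 0.10. Sirt2 was also the 1 gene of the list past 2-fold between the genotypes at 3 h, with -1.26 on the array labelled Nr4a-TKO. Of all genes, 3.68% were apart by as much at that stage.

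Of 13 partners of Tcf7 and Lef1, 2 were more than 2-fold lower and 1 was higher in each genotype, and they were the same 3 genes. Over all genes, 8.55% were lower by as much on the WT arrays and 7.99% on the others, and 8.40% and 7.78% were higher. The 3 partners are all Groucho family genes. Tle5, a short member of that family, was at -2.07 and -1.98, Tle4 at -1.05 and -1.12, and Tle1 at 1.11 and 1.26. The other Tle4 probe, at -0.17 and -0.22, was within 2-fold, and so was the lowest Tle1 probe, at 0.33 and 0.57. β-catenin (Ctnnb1), the coactivator, differed by 0.31 and 0.49.

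Of the 5 partners of Bach2, the 3 small Maf genes were all more than 2-fold higher at 3 h in both genotypes. Among all genes, 8.40% were higher by as much on the WT arrays and 7.78% on those labelled Nr4a-TKO. Mafg was at 2.83 and 2.67 and Mafk at 1.62 and 1.22. Maff was not well above background on either naive array, and was at least 2.14-fold higher on the WT arrays and at least 2.68-fold higher on the others. The corepressor genes Ncor1, at -0.70 and -0.64, and Hdac3, at 0.50 and 0.83, were within 2-fold.

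Of 7 genes that Bach2 is known to repress, 1 was more than 2-fold higher and 2 were lower at 3 h in each genotype. Over all genes, 8.40% and 7.78% were higher by as much on the WT and Nr4a-TKO arrays, and 8.55% and 7.99% were lower. Ccr4, a chemokine receptor of effector and Treg cells, was 3.64-fold higher on the WT arrays. It was not well above background on the Nr4a-TKO naive T array and was at least 18.4-fold higher at 3 h in that genotype. The other Ccr4 probe differed by only 0.39 on the WT arrays and 0.20 on those labelled Nr4a-TKO, so these folds rest on 1 probe. Prdm1 (Blimp-1) was lower by -1.53 and -0.76, and Gata3, the Th2 regulator, by -1.53 and -1.96. Id2, an inhibitor of E proteins, was at -0.94 and -1.52 and was 2.04-fold higher on the Nr4a-TKO than on the WT naive T array. Maf, a regulator of effector cytokines, read 7.08 on the WT iTreg array and 8.38 on the Nr4a-TKO iTreg array, a log2 difference of 1.29.

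Relatives of the 7 factors were mostly dim. Of 7, Foxp2 and Tcf7l1 were not well above background on any array. Foxp4 was the only 1 past 2-fold in a comparison, with 5.18 in WT naive T, 6.16 in Nr4a-TKO naive T, 7.09 in WT iTreg and 6.70 in Nr4a-TKO iTreg. The WT naive T array was the low one, and the change was 1.91 on the WT arrays and 0.54 on those labelled Nr4a-TKO. Of all genes, 8.40% were more than 2-fold higher at 3 h on the WT arrays. Tcf7l2, the relative of Tcf7 that was well above background on all 4 arrays, differed by -0.07 and -0.54.

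Finally, the promoter sequences of the 7 genes were searched for binding motifs. RefSeq (GRCm38.p6) gave 17 windows for them, each of 250 bases before a transcript start and 50 after, and all 7 matched by symbol. The Nr4a motif AAAGGTCA, which contains the half-site shared by many nuclear receptors, was in 1 window, of Tcf7, on either strand, and in 1.51% of 32851 windows in all. Its variant AAATGTCA was in 0 of the 17 and in 1.53% of all. The forkhead motif GTAAACA was in 1 window, also of Tcf7, and in 3.65% of all. The Tcf and Lef motif CTTTGAT and the AP-1 motif TGANTCA were in 0 windows, and in 3.73% and 7.81% of all. The Ets core AGGAAG was in 4 windows, of Foxp1, Lef1 and Satb1, and in 35.4% of all. The Tcf7 window is shown because it holds the Nr4a letters near a start of a gene with a large change. The 250 bases before that start, chr11:52282596-52282845 on the minus strand, are printed with the reverse complement of the motif in capitals.
Tcf7: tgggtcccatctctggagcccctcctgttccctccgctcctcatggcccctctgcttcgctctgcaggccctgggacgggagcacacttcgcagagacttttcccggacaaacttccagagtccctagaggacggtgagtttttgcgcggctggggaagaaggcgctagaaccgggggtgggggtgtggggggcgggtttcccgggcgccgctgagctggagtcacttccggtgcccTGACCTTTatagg
A match of letters is a description, and binding was not analysed here.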

How the data were processed

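Cy3-labelled RNA (100 ng) of 4 samples, 1 per group, was measured on 4 arrays of 62976 spots. For each array, the authors deposited the output of Agilent Feature Extraction 11.5.1.1, per the submitters' processing notes, with the mean intensity, local background and processed intensity of every spot. They also deposited a table on the log2 scale. The methods name RMA, whereas in the table each array's processed intensity, as log2, was found to be set to its own 75th percentile (SD of the remainder 0.003), and its column medians lay between -2.33 and -2.16.

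For the values used here, limma 3.58.1 was run in R 4.3.3, with the package data.table in version 1.17.8: normexp with an offset of 0, quantile normalization over the 4 arrays, log2, and the mean over spots. Control spots and 115 to 160 outlier spots per array were left out. Between 64.9% and 67.6% of the probes were well above background, and no spot was saturated. Later steps ran in Python 3.11.15 with matplotlib 3.10.9, numpy 2.4.6 and pandas 2.3.3. Names came from the file or the RefSeq table of GRCm38.p6, and 4831 of 56605 probes had none. A gene took its probe with the highest mean. A dim probe was raised to the lowest value well above background on its array, which makes the difference a bound. With 1 array per group no test was made, and 2-fold served as the threshold, as in the study. The counting was tested on simulated data. The members and gene lists were chosen with earlier results of these data known. A few list genes and 1 probe sequence are not reported here. Named were the members, the Nr4a genes, list genes past 2-fold in a comparison and the 3 genes nearest in pattern. Ctnnb1, Akt1, Akt2, Ncor1, Hdac3, Tcf7l2, the relatives below background and the marker genes were named after their values were seen. The alternatives were other background corrections and scalings, the deposited values, other rules for probes, and thresholds of 1.5-fold and 3-fold.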

Additional observations from a re-analysis of the deposited data

Results flagged for a closer look

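Between naive T and iTreg at 3 h, the difference between the arrays labelled Nr4a-TKO and WT took opposite signs for 4 of the 24 probes, each side by more than 1 SD of repeated spots, where 9.79% of the 32959 probes well above background on all 4 arrays did so. With 1 array per group, none of these was tested. For Foxo1 this held for both probes: probe 1 was at -0.26 in naive T and 0.36 at 3 h, so that the changes differed by 0.62, and probe 2 was at -0.24 and 0.46, so that they differed by 0.70. Over the alternatives the gene's value stayed between 0.61 and 0.72. For Foxp1 it held for probe 5, with 0.19 in naive T and -0.40 at 3 h, and the changes differed by -0.58. For Tcf7 it held for probe 2, with 0.21 and -0.20, and the changes differed by -0.40. The summed B cell list was higher on the arrays labelled Nr4a-TKO at both stages. Cd79b differed by -0.56 and Ms4a1 by 0.10 in naive T, and by 0.77 and 0.07 at 3 h. The part of this list was not tested.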

How the results depend on the processing

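Of 35 differences, 5 for each of the 7 genes, 26 kept their sign under every alternative run and 9 did not. Foxo1, Tcf7 and Satb1 kept all of theirs, and Foxp1 lost the sign of all 5 with its second-brightest probe, a setting chosen after seeing the data. With the planned mean of all its probes, Foxp1 also changed sign for the change on the WT arrays (0.10). The same held for its genotype differences in naive T (0.06) and at 3 h (-0.23), and for the difference of the changes (-0.28). The counts on the WT arrays moved as follows. The number of the 7 genes more than 2-fold higher was 1, in place of 0, with the 75th percentile scaling, the deposited values, the second-brightest probe and a threshold of 1.5-fold, and 5 in place of 3 were lower at 1.5-fold. The number of probes more than 2-fold higher was 3, 4 and 0, in place of 1, with the 75th percentile scaling, the deposited values and a normexp offset of 50. On the arrays labelled Nr4a-TKO, 1 in place of 3 genes was lower at 3-fold. The median on the WT arrays was -0.53 with the mean of all probes and -0.95 with the second-brightest probe. On the arrays labelled Nr4a-TKO it was -0.46 with an offset of 50 and -0.40 with the mean of all probes. The median difference of the changes was -0.17 with the second-brightest probe, in place of 0.12. Over all genes, 1953 were more than 2-fold higher and 1987 lower on the WT arrays, against 959 and 936 with the offset of 50, and in naive T 445 and 389 were apart between the genotypes, against 101 and 87 with the offset of 50 and 188 and 168 with no background correction. The cause of these moves was not tested. No paired analysis was possible because each group had 1 array, so no groups shared 2 replicate numbers. A model of stage with genotype as a block, which would take the difference between the genotypes' changes as its error, was not run. Repeated spots give the spread within an array alone, and a difference under 2-fold had no replicate to be set against.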
